A study of Mus musculus with 4 samples.

Results

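The genes described here encode the machinery of oxidative phosphorylation: complexes I to V of the mitochondrial inner membrane and 5 assembly factors of complex I. They were taken from an array study of whole lung of mouse embryos. Members were all genes with a probe set of a single symbol in the platform annotation that begins with Nduf, Uqcr or Atp5, or with Cox followed by a digit from 4 to 8 and a letter, together with Sdha, Sdhb, Sdhc and Sdhd. This gave 84 genes on 156 probe sets, of 12393 genes on 20380 single-symbol probe sets. They comprise 33 subunits of complex I, 5 assembly factors of complex I, 4 subunits of complex II, 8 of complex III, 17 of complex IV and 17 of complex V. Ndufa4 was counted with complex IV, where current structures place it, although its name comes from complex I. Subunits coded by mitochondrial DNA are not matched by the rule.

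Lungs of Sftpc-Nmyc embryos (2 arrays) were compared with lungs of wild-type embryos (2 arrays), all at embryonic day 18 by their titles. The transgene fuses mouse Nmyc1, now called Mycn, to the fluorescent protein EGFP and is driven by 3.7 kb of promoter and enhancer of the human SFTPC gene, which acts in lung epithelium, so only part of the cells in these whole lungs would carry the protein. For the transgenic embryos the construct was injected into F2 eggs of C57BL/6J by DBA/2J mice, so each embryo may carry its own integration, and collection was at day 18.5. The strain and the exact age of the wild-type embryos are not stated in the labels. Duplicates are biological replicates by the design text, and the number of arrays limits the precision of every value.

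Oxidative phosphorylation couples the flow of electrons to the making of ATP. Complex I takes electrons from NADH and complex II from succinate, both pass them to coenzyme Q, complex III hands them to cytochrome c, and complex IV gives them to oxygen. Complexes I, III and IV pump protons as they do so, and complex V, the ATP synthase, lets the protons back through a rotor and makes ATP. In the lung, alveolar type II cells, which make surfactant, are known as cells rich in mitochondria. MYC proteins are known to raise the expression of many genes of mitochondria and of ribosomes in growing cells.

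The brightest probe set of Mycn, the transgene's own gene, read 455.2 and 356 in the Sftpc-Nmyc lungs, against 34.7 and 32.1 in the wild-type lungs, which is 3.46 ± 0.19 on the log2 scale (limma adjusted p = 7.3e-05). Both wild-type values lie under the highest Bacillus control signal, 73.4, which serves here as a guide to background, so the size of this fold is not well defined. They also lie under the floor of the filter on low signals, a signal of 37.2. This probe set therefore passed the filter through its Sftpc-Nmyc level and could only come out higher. Another of its probe sets went the other way and read 25.1 and 27.2 in Sftpc-Nmyc lungs and 78.7 and 63.5 in wild-type lungs, and which of its probe sets lie within the transgene was not determined. Arrays of the same group correlated at r = 0.968 (Sftpc-Nmyc) and r = 0.965 (wild type), while pairs drawn across the groups had r = 0.922 to 0.933. The ratio of 3′ to 5′ signal, a sign of RNA quality, was 0.843 and 0.912 for Gapdh in Sftpc-Nmyc lungs and 1.05 and 0.927 in wild-type lungs. For beta-actin it was 1.09 and 1.12 in Sftpc-Nmyc lungs, against 0.949 and 1.01 in wild-type lungs. Xist read 59.3 and 63.9 in Sftpc-Nmyc lungs and 1707.8 and 1506.1 in wild-type lungs on its brightest probe set, and the Y-linked Eif2s3y read 58 and 61.7 in Sftpc-Nmyc lungs and 3.1 and 0.8 in wild-type lungs, so sex appears to differ between the groups and cannot be told apart from genotype. Among the members, Ndufa1 and Ndufb11 lie on chromosome X.

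Genes of oxidative phosphorylation were mostly higher in Sftpc-Nmyc lungs, by small amounts. Of 84 genes 81 passed the filter on low signals, 33 of these rose, 2 fell and 46 did not pass the test (limma, Benjamini-Hochberg adjusted p under 0.05 over all 8675 genes tested). Over all genes tested, 14.7% were called higher and 15.7% lower, 30.4% in either direction, so the share of members called higher, 40.7%, lay above the background and the share called lower lay below it. Members are bright genes: among the 552 tested genes at or above the median level of the tested members, 22.1% were called higher and 29.2% lower. The median log2 fold change of the members was 0.36, against -0.02 over all genes tested, and the values ran from -1.33 to 1.23. The median over members of the normalized log2 level was 9.87 and 9.96 on the Sftpc-Nmyc arrays, against 9.45 and 9.52 on the wild-type arrays.

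In 63 of the 81 tested members both Sftpc-Nmyc arrays lay above both wild-type arrays, and in 5 both lay below. Over all genes tested, 33.2% had both Sftpc-Nmyc arrays above, and 68.1% had groups that did not overlap in either direction. The count of members called higher rested on all 4 arrays. It was 22 without Sftpc-Nmyc replicate 1, 14 without Sftpc-Nmyc replicate 2, 16 without wild-type replicate 1 and 11 without wild-type replicate 2, where 10%, 8.55%, 10.4% and 8.66% of all genes were called higher in the same order. Of the 33 genes, 8 were called whichever array was left out: Ndufab1, Ndufb2, Ndufb8, Ndufv2, Sdhd, Uqcrfs1, Uqcr11 and Atp5g1. The count was 16 with no trend of variance on level in the model. In whole lung, fewer cells of a type and less RNA per cell cannot be told apart, here or in any comparison that follows.

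**Figure D1:**
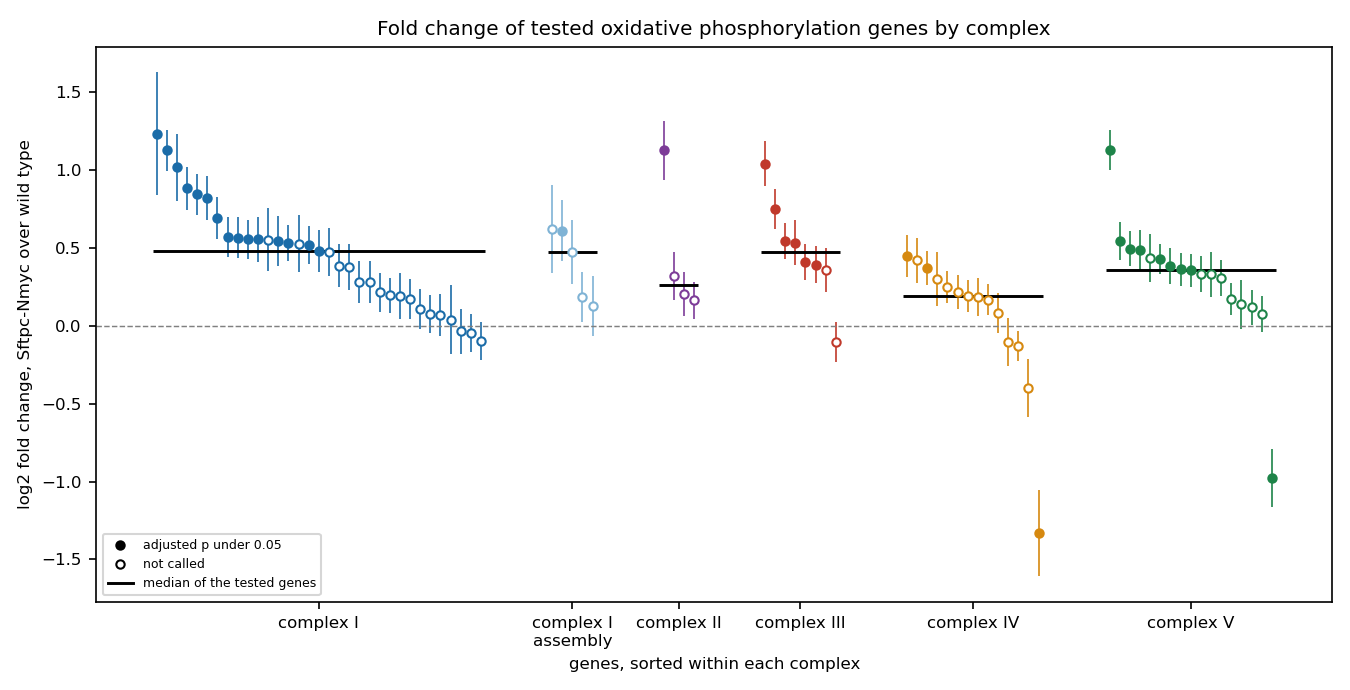
Log2 fold change, Sftpc-Nmyc over wild type, of the 81 tested genes, grouped by complex along the horizontal axis and sorted within it; each point is 1 gene with its limma standard error (n = 2 arrays per group), filled where the adjusted p was under 0.05, and black bars mark medians. Most points of complexes I, III and V lie above 0, those of complex IV lie nearer to 0, and Cox6a2 at -1.33 and Atp5k at -0.98 stand apart below.

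**Figure D2:**
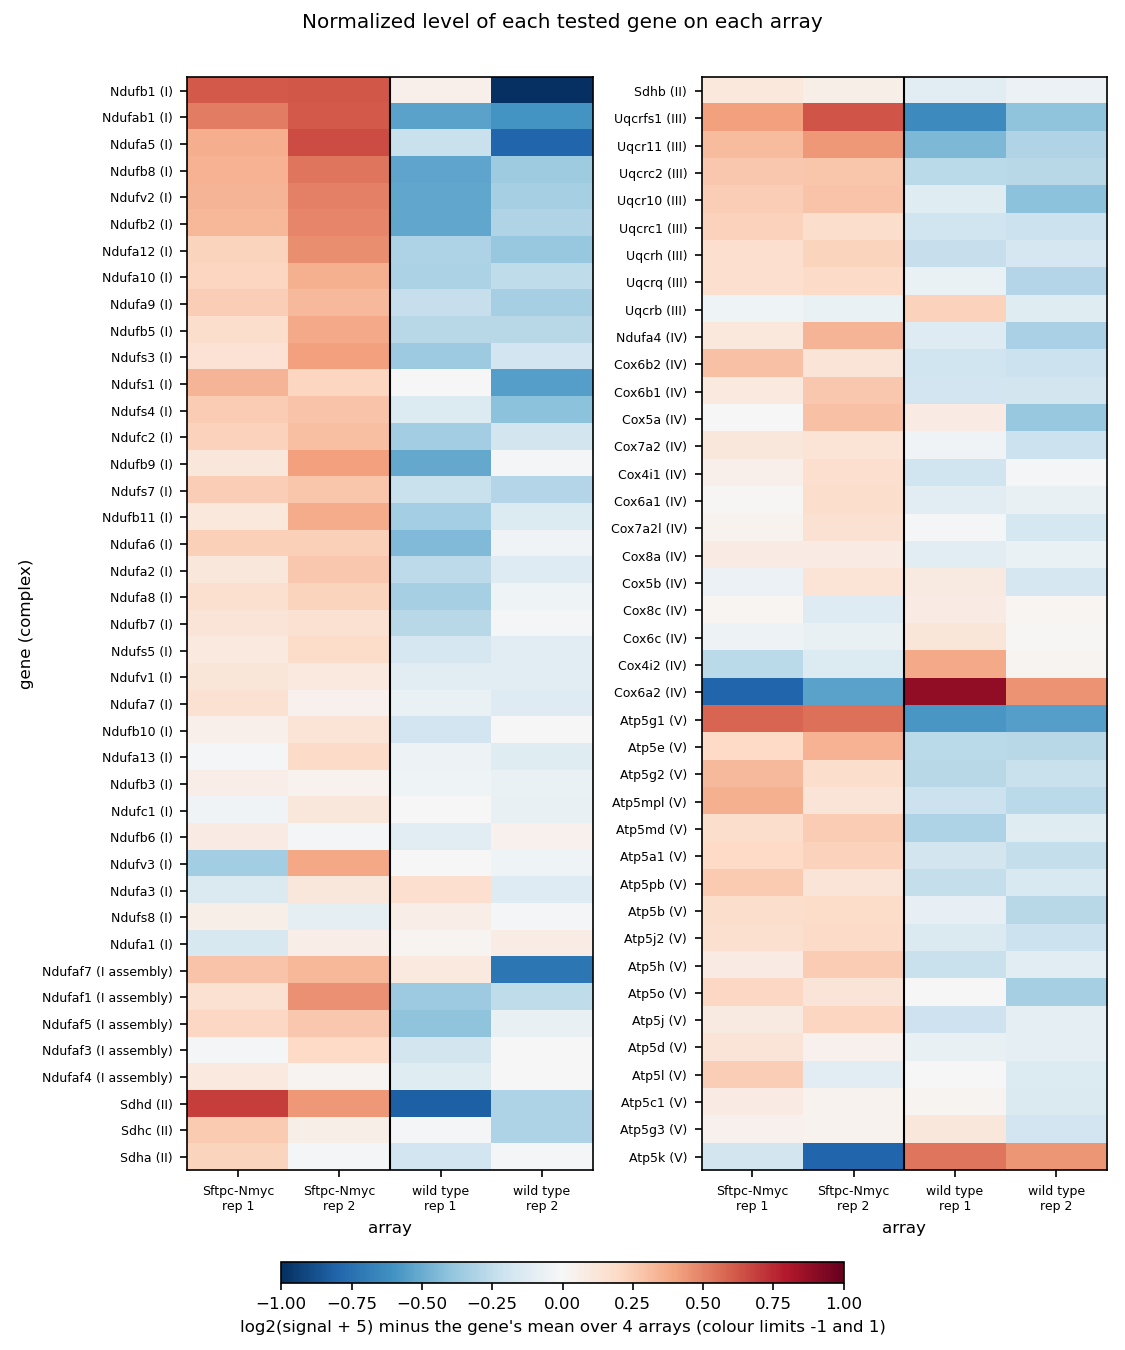
Normalized level of the 81 tested genes on each array as a colour, log2(signal + 5) minus the gene's mean over the 4 arrays, with the 2 Sftpc-Nmyc arrays left of the 2 wild-type arrays and genes sorted by complex and fold change. Red on the left and blue on the right marks the 63 genes whose Sftpc-Nmyc arrays both lay above the wild-type arrays; wild-type replicate 2 is the lowest array for Ndufb1, Ndufa5, Ndufs1 and Ndufaf7.

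Complex I, the NADH dehydrogenase, had 15 of 33 subunits (45.5%) higher and none lower, with a median log2 fold change of 0.48. The share called higher was 14.7% over all genes tested. Among the 552 of them at or above the median level of the tested members it was 22.1%. Complex I consists of a module that oxidises NADH, a module that reduces coenzyme Q and a membrane arm that pumps protons. The count was 13 without Sftpc-Nmyc replicate 1, 6 without Sftpc-Nmyc replicate 2, 8 without wild-type replicate 1 and 7 without wild-type replicate 2. In the NADH module 3 of 7 subunits (42.9%) rose, in the coenzyme Q module 4 of 7 (57.1%) and in the membrane arm 8 of 19 (42.1%). Medians in these modules were 0.54, 0.52 and 0.38, a spread smaller than the range within each of them.

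In the NADH module Ndufv2, an iron-sulfur subunit, had deposited signals of 1195.5 and 1310.2 in Sftpc-Nmyc lungs, against 627.3 and 723.2 in wild-type lungs. The groups did not overlap, and the log2 fold change of 0.85 ± 0.13 (SE) passed with a limma adjusted p of 0.0030. Its 2 further probe sets also passed, at 0.73 and 0.95. Ndufa12, an accessory subunit, rose by 0.69 ± 0.14 but did not pass without wild-type replicate 2. Ndufs4, whose loss in mice causes a fatal brain disease, rose by 0.54 ± 0.16, a call that ended whichever array was left out (limma adjusted p = 0.051 to 0.17). Ndufv1, which holds the site where NADH gives up its electrons, stood at 0.22 ± 0.12 and did not pass. Ndufs1, the large iron-sulfur subunit, stood at 0.55 ± 0.20 with a limma adjusted p of 0.073.

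In the coenzyme Q module Ndufa5 read 344.5 and 420.3 in Sftpc-Nmyc lungs, against 227.1 and 151 in wild-type lungs, a log2 fold change of 1.02 ± 0.21. Ndufa9, which lies near the coenzyme Q site, rose by 0.57 ± 0.13. The core subunits Ndufs3 and Ndufs7, the second of which carries the last iron-sulfur cluster before coenzyme Q, rose by 0.55 ± 0.15 and 0.52 ± 0.12. Their calls, like that of Ndufa9, ended without Sftpc-Nmyc replicate 2 and without either wild-type array, and that of Ndufa5 ended without replicate 2 of either group. Ndufs8, another iron-sulfur subunit, was read by 6 probe sets that differed: the one that stood for the gene, with the highest mean log2 level, stood at -0.05 and did not pass, another of nearly the same signal stood at 0.33 and did not pass, and a dimmer one passed at 0.55.

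In the membrane arm the clearest rise was that of Ndufab1, the mitochondrial acyl carrier protein, which also serves fatty acid synthesis and the making of iron-sulfur clusters. Its signal was 747.1 and 789.3 in Sftpc-Nmyc lungs, against 351.2 and 338.9 in wild-type lungs. That is 2.19-fold, or 1.13 ± 0.13 on the log2 scale (limma adjusted p = 0.0010). Ndufb8, a subunit often used as an index of assembled complex I, read 886.4 and 996 in Sftpc-Nmyc lungs and 468 and 530 in wild-type lungs, and rose by 0.88 ± 0.14. Ndufb2 rose by 0.82 ± 0.14, although its other probe set stood at 0.36 and did not pass (limma adjusted p = 0.10). The accessory subunits Ndufa10, Ndufb5, Ndufc2 and Ndufb11 rose by 0.48 to 0.57. The call of Ndufc2 ended without wild-type replicate 1, and the other calls ended without Sftpc-Nmyc replicate 2 and without either wild-type array. The further probe sets of Ndufb11, one of the X-linked members, stood at -0.0017 and 0.049 and did not pass. Ndufb1 had the highest value of all members, 1.23 ± 0.40, but its signal was 104.8 and 107.5 in Sftpc-Nmyc lungs and 73 and 25.2 in wild-type lungs, under or close to the background guide of 73.4. Without wild-type replicate 2 it stood at 0.57 (limma adjusted p = 0.12), and its call ended without either Sftpc-Nmyc array too. Ndufa1, Ndufa3, Ndufb6 and Ndufc1 stood between -0.10 and 0.08 and did not pass, with groups that overlapped.

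Assembly factors of complex I were dim. Ndufaf1, a chaperone of the membrane arm, read 112.5 and 141.7 in Sftpc-Nmyc lungs, against 80.4 and 85.4 in wild-type lungs, and rose by 0.61 ± 0.19. Its call ended whichever array was left out (limma adjusted p = 0.061 to 0.25). The methyltransferase Ndufaf7 stood at 0.62 ± 0.28, Ndufaf5 at 0.47 ± 0.20, Ndufaf3 at 0.18 ± 0.16 and Ndufaf4 at 0.12 ± 0.19, and none of these passed. All 5 values were above 0, with a median of 0.47, but only 1 of 5 (20%) was called higher, a share near the 14.7% of all genes.

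Complex II, succinate dehydrogenase, also belongs to the citric acid cycle. Of its 4 subunits Sdhd rose (25%) and 3 did not pass, with a median of 0.26. That share is near the 22.1% called higher among tested genes at or above the median level of the tested members. The share over all genes tested was 14.7%. Sdhd, one of the subunits that anchor the enzyme in the membrane, read 1045.5 and 859.8 in Sftpc-Nmyc lungs, against 354.4 and 509.9 in wild-type lungs. Its log2 fold change of 1.13 ± 0.19 (limma adjusted p = 0.0042) held whichever array was left out. A second, dim probe set at 96.6 and 44 in Sftpc-Nmyc lungs and 37.1 and 55.5 in wild-type lungs did not pass. The other anchor Sdhc stood at 0.32 ± 0.16, the flavoprotein Sdha, which oxidises succinate, at 0.21 ± 0.14 and the iron-sulfur subunit Sdhb at 0.16 ± 0.12.

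In complex III, the cytochrome bc1 complex, 6 of 8 subunits (75%) rose, against 14.7% of all genes tested. None fell, and the median was 0.47. The count was 3 without either Sftpc-Nmyc array or without wild-type replicate 1, and 2 without wild-type replicate 2. Uqcrfs1, the Rieske iron-sulfur protein that passes electrons on to cytochrome c1, read 987.9 and 1134.8 in Sftpc-Nmyc lungs, against 461.1 and 545.9 in wild-type lungs. The groups were well apart, at 2.06-fold or 1.04 ± 0.14 (log2, limma adjusted p = 0.0019). Uqcr11, a small subunit, read 885.2 and 949.7 in Sftpc-Nmyc lungs, against 502.6 and 564.2 in wild-type lungs, and rose by 0.75 ± 0.13. The core proteins Uqcrc2 and Uqcrc1 rose by 0.54 ± 0.12 and 0.41 ± 0.11. Uqcrh, the hinge protein at cytochrome c1, rose by 0.39 ± 0.12 and Uqcr10 by 0.53 ± 0.15, although a dimmer probe set of Uqcr10 stood at -0.71 (limma adjusted p = 0.073). Of these calls, those of Uqcrc1 and Uqcrh ended whichever array was left out, that of Uqcrc2 without either wild-type array, and that of Uqcr10 without either Sftpc-Nmyc array or wild-type replicate 2. Uqcrq, at 0.36 ± 0.14, and Uqcrb, at -0.11 ± 0.13, did not pass.

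Complex IV, cytochrome c oxidase, had 2 of 14 tested subunits higher and 1 lower, a share called higher of 14.3% that is near the 14.7% of all genes. Leaving out its 4 tested tissue isoforms, 2 of 10 (20%) were higher. Among the 552 tested genes at or above the median level of the tested members, 22.1% were called higher. The median of complex IV, 0.19, was the lowest of the complexes, a difference between complexes that was not tested. Of its subunits in general use, Cox6b1, which faces the space between the membranes, read 2516.9 and 2801.7 in Sftpc-Nmyc lungs, against 1948.3 and 1968.8 in wild-type lungs, and rose by 0.37 ± 0.11. Ndufa4 rose by 0.45 ± 0.14. Both calls ended without Sftpc-Nmyc replicate 2 and without either wild-type array. Cox4i1, the largest subunit coded in the nucleus, stood at 0.22 ± 0.11, Cox5a at 0.30 ± 0.17, Cox7a2 at 0.25 ± 0.10, Cox6a1 at 0.19 ± 0.10, Cox8a at 0.17 ± 0.10, Cox5b at 0.08 ± 0.13 and Cox6c at -0.13 ± 0.10, and none of these passed. Cox5a, Cox5b, Cox6c and Cox7a2 each had a dimmer probe set that passed with a rise when each probe set was tested alone. Cox7a2l, which joins complexes III and IV in supercomplexes, stood at 0.19 ± 0.12. Cox7c could not be assessed, because its brightest probe set read only 9.4 to 26.6 over the 4 arrays.

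Several subunits of complex IV have isoforms made in particular tissues, and of the 4 tested isoforms none was called higher and 1 was called lower. Cox6b2, the isoform with the highest value, stood at 0.42. Cox6a2, the form of heart and skeletal muscle, read 24.5 and 32.6 in Sftpc-Nmyc lungs, against 98.1 and 71.1 in wild-type lungs, and fell by 1.33 ± 0.28 (log2, limma adjusted p = 0.0096). All of these but wild-type replicate 1 lie under the background guide of 73.4, so the size of the fall is not well defined. Both Sftpc-Nmyc values also lie under the filter floor, a signal of 37.2. Cox6a2 therefore passed the filter through its wild-type level and could only come out lower. Without wild-type replicate 1 the value was -1.13 and no longer passed (limma adjusted p = 0.071). The other muscle forms, Cox8b and Cox7a1, lay below the filter and were not tested: Cox8b read 3.4 and 5.7 in Sftpc-Nmyc lungs and 29.1 and 37.9 in wild-type lungs, and Cox7a1 read 15.8 and 1.3 in Sftpc-Nmyc lungs and 19.4 and 22.3 in wild-type lungs. In all 3 muscle forms both Sftpc-Nmyc arrays lay below both wild-type arrays. However, 68.1% of all genes tested had groups that did not overlap, counting either direction. The share with both Sftpc-Nmyc arrays above was 33.2%, and the rest of the 68.1% had both below. Cox8b and Cox7a1 are not among the genes tested. All values of Cox8b and Cox7a1 lie under the background guide. After normalization the nearest arrays of Cox7a1 stood at 4.504 (Sftpc-Nmyc replicate 1) and 4.510 (wild-type replicate 1) on the log2 scale. Cox4i2, a form known from lung, read 111.1 and 124.6 in Sftpc-Nmyc lungs, against 180.9 and 139.5 in wild-type lungs, and at -0.40 ± 0.19 did not pass. The testis forms Cox6b2 and Cox8c stood at 0.42 ± 0.15 and -0.11 ± 0.15 and did not pass.

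Markers of cardiac muscle were mostly lower in Sftpc-Nmyc lungs. Of 13 tested cardiac markers 12 were lower and none higher, with a median of -2.24, where 15.7% of all genes were called lower. Their summed signal was 801.1 and 1026.3 in Sftpc-Nmyc lungs, against 4335.8 and 2796 in wild-type lungs. The filter used the mean over all 4 arrays, with a floor at a signal of 37.2. A marker under that floor in both Sftpc-Nmyc lungs, such as Myh6, passed through its wild-type level and could only come out lower. Tnnt2, cardiac troponin T, fell by 2.31 ± 0.21 and Myh6, the atrial myosin heavy chain, fell by 2.54 ± 0.31, with Sftpc-Nmyc signals of 29.6 and 37.7 for Tnnt2 and 19.6 and 29.7 for Myh6 that lie under the background guide. Myl2, Myl3, Nppa, Actn2, Pln and Ckmt2, further cardiac markers, lay below the filter, as did all 8 skeletal muscle markers and all 4 brown fat markers, of which Cox8b is one. Of 11 smooth muscle and pericyte markers 8 were lower, with summed signals of 2764.3 and 3261.6 in Sftpc-Nmyc lungs and 5221.3 and 5265.6 in wild-type lungs. The part of these cells in the levels of Cox6a2, Cox8b, Cox7a1 and Cox4i2 was not tested.

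**Figure D3:**
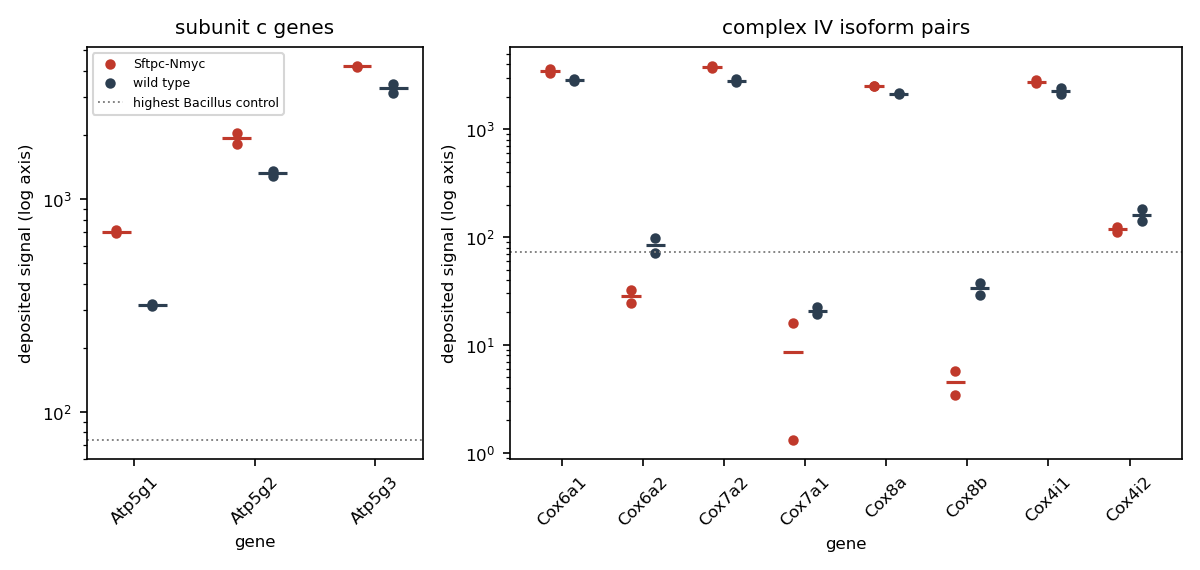
Deposited signal on a log axis of the genes for subunit c of ATP synthase (left) and of paired isoforms of complex IV (right), with 2 Sftpc-Nmyc arrays left of 2 wild-type arrays for each gene, a bar at each mean, and a dotted line at the highest Bacillus control signal of 73.4. Atp5g1 shows the widest gap among the subunit c genes, and Cox6a2, Cox7a1 and Cox8b lie lower in Sftpc-Nmyc lungs than in wild-type lungs, partly or wholly under the dotted line; heights of different genes cannot be compared.

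In complex V, the ATP synthase, 8 of 17 genes (47.1%) rose, against 14.7% of all genes tested, and 1 fell, with a median of 0.36. Fewer of these genes were called higher whichever array was left out. Without wild-type replicate 2 the share called higher in complex V lay below that of all genes. Of the head and central stalk, the alpha subunit Atp5a1 read 3654.4 and 3454.8 in Sftpc-Nmyc lungs, against 2462.4 and 2378.9 in wild-type lungs, and rose by 0.43 ± 0.10. The beta subunit Atp5b, which carries the catalytic sites, rose by 0.36 ± 0.11. In the central stalk the epsilon subunit Atp5e rose by 0.54 ± 0.12. The call of Atp5a1 ended without wild-type replicate 2, that of Atp5b without either Sftpc-Nmyc array or wild-type replicate 2, and that of Atp5e without Sftpc-Nmyc replicate 2 or either wild-type array. Its gamma and delta subunits, Atp5c1 and Atp5d, stood at 0.12 ± 0.11 and 0.17 ± 0.10 and did not pass, although a second probe set of Atp5d passed at 0.69. In the outer stalk that holds the head still, Atp5pb, subunit b, rose by 0.39 ± 0.12, while Atp5h, Atp5o and Atp5j stood between 0.31 and 0.33 without passing. Among the small membrane subunits Atp5mpl and Atp5j2 rose by 0.48 ± 0.13 and 0.36 ± 0.11, and Atp5md and Atp5l did not pass. The calls of Atp5pb and Atp5j2 ended whichever array was left out, and that of Atp5mpl ended without Sftpc-Nmyc replicate 1 or either wild-type array.

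Subunit c, which forms the turning ring, is encoded by 3 genes, Atp5g1, Atp5g2 and Atp5g3, that are known to make the same mature protein behind different targeting peptides. Atp5g1 read 715.1 and 688.2 in Sftpc-Nmyc lungs, against 313.4 and 320.5 in wild-type lungs, which is 2.19-fold or 1.13 ± 0.13 (log2, limma adjusted p = 0.0010). Atp5g2 read 2050 and 1814.7 in Sftpc-Nmyc lungs, against 1284.8 and 1359 in wild-type lungs, and rose by 0.49 ± 0.11. Atp5g3 read 4220.9 and 4168.3 in Sftpc-Nmyc lungs, against 3455.5 and 3145.5 in wild-type lungs, and at 0.08 ± 0.12 did not pass. Without quantile normalization Atp5g3 stood at 0.35 ± 0.099 and passed (limma adjusted p = 0.030), so its call depends on that step. The call of Atp5g1 held whichever array was left out, and that of Atp5g2 ended without Sftpc-Nmyc replicate 1 and without either wild-type array. The difference between the genes was not tested.

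Promoters are shown for these genes, because they encode 1 mature protein, for Atp5k as the member of complex V that fell, and for Sdhd as the member of complex II that rose. Each is 300 bases from RefSeq (build GRCm38.p6), from 250 bases before to 50 after the start site, written 5′ to 3′ on the gene's strand, with capitals for matches on either strand to the E-box CACGTG and to the ETS motif CCGGAAG.
Atp5g1, chr11:96075582-96075881, minus strand: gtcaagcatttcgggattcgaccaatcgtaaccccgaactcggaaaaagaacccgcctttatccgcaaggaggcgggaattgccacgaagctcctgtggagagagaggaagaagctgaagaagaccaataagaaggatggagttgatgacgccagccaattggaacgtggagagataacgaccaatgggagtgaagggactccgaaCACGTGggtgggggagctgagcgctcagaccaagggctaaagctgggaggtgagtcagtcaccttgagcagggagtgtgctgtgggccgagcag
Atp5g2, chr15:102670998-102671297, minus strand: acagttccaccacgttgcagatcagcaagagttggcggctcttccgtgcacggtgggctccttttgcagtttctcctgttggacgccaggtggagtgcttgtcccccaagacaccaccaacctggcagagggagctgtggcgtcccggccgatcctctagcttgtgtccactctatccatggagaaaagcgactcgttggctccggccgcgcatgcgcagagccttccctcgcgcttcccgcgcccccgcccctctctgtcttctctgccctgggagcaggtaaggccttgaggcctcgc
Atp5g3, chr2:73911277-73911576, minus strand: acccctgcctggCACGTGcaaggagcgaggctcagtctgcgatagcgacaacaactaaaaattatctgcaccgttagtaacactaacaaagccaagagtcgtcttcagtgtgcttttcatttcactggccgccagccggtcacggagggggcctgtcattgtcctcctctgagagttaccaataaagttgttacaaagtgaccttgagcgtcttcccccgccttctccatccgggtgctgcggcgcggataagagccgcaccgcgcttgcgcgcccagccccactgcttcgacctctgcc
Atp5k, chr5:108434350-108434649, minus strand: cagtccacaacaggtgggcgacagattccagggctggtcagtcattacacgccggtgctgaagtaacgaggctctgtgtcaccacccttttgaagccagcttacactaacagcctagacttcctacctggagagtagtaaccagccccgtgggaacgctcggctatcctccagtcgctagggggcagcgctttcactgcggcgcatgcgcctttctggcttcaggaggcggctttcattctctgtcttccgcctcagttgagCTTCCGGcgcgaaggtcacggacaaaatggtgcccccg
Sdhd, chr9:50603800-50604099, minus strand: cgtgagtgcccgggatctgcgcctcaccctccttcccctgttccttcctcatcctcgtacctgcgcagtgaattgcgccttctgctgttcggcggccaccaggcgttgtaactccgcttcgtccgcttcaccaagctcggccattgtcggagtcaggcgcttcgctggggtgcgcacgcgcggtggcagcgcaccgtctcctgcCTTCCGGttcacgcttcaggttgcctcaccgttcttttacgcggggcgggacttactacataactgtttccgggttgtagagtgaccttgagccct

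The E-box is the site bound by MYC with MAX, the ETS factor GABP is a known regulator of respiratory genes, and a match of letters is not a bound site. In the Atp5g1 promoter the E-box begins at position -44 from the start site, and in that of Atp5g3 another begins at -238. Atp5g2 holds neither motif in this window. The ETS motif begins at -46 in Sdhd and at 12 in Atp5k. Of the 84 members 70 had a promoter in the table, and 6 of these (8.57%) held the E-box, against 8.09% of all 27025 genes. The ETS motif was in 18 of the members (25.7%), against 9.93% of all genes. Among the 30 members called higher with a promoter 6.67% held the E-box and 23.3% the ETS motif, and among the other 40 members 10.0% and 27.5% did.

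Atp5k, the small membrane subunit e, was the member that went against its complex. It read 1281.7 and 823.1 in Sftpc-Nmyc lungs, against 2036 and 1912.9 in wild-type lungs, and fell by 0.98 ± 0.19 (log2, limma adjusted p = 0.0070). A second probe set also fell, by 0.87 (limma adjusted p = 0.0092 with each probe set tested alone), with 892.3 and 959.3 in Sftpc-Nmyc lungs and 1959.3 and 1404.7 in wild-type lungs. The dimmest of its probe sets read 403.5 and 418.4 in Sftpc-Nmyc lungs and 355.1 and 292.5 in wild-type lungs, a log2 fold change of 0.34 that did not pass. On the brightest probe set the call was lost without wild-type replicate 1 (limma adjusted p = 0.062) and without wild-type replicate 2 (0.057).

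Signal level differed between the complexes along with their fold changes. The 27 brightest of the 81 members had a median log2 fold change of 0.22, with 8 of 27 called higher, the 27 of middle level had 0.47, with 16 called higher, and the 27 dimmest had 0.42, with 9 called higher. The brightest 27 held 9 of the 14 tested subunits of complex IV and 11 of the 17 of complex V, but only 6 of the 33 of complex I. Without quantile normalization the median of complex IV was 0.27 and that of complex I was 0.51. The part of signal level in the difference between complexes was not tested.

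**Figure D4:**
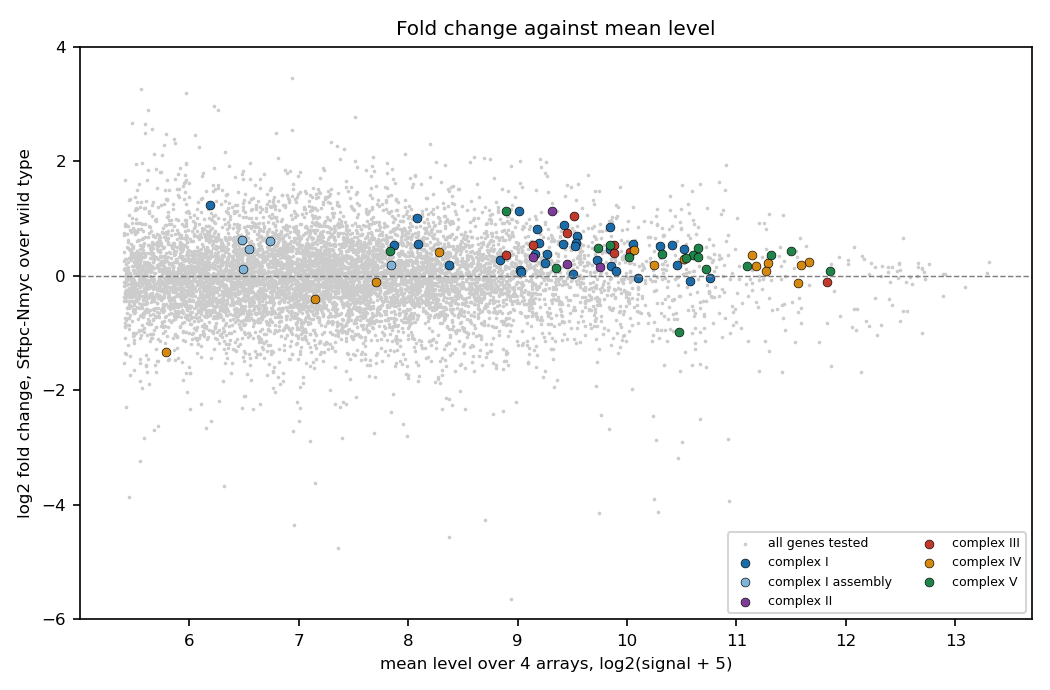
Log2 fold change, Sftpc-Nmyc over wild type, against mean level over the 4 arrays, log2(signal + 5), with all 8675 tested genes in grey and the 81 tested members coloured by complex. Members lie mostly above 0 and right of the bulk of genes, and their values approach 0 at the bright end, where most of complex IV lies.

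Many member genes were read by several probe sets. In 37 member genes a second probe set, or more, passed the filter and averaged above the highest Bacillus control. Over the 53 pairs so formed, the other probe set had the larger log2 fold change in 35, with a median of 0.46 against 0.22 for the one that stood for the gene by its mean log2 level. The other one was dimmer by mean signal in all pairs but 1, of Ndufs8. Where the brightest averaged above a signal of 2000, a limit chosen after the values were seen, the other one was larger in 10 of 11 pairs, with a median of 0.46 against 0.17. Cox6c stood at -0.13 on its brightest probe set and rose by 0.76 on its other one, and Uqcrb stood at -0.11 on the brightest and rose by 0.63 on its other one. Cox5a, Cox5b and Cox7a2 each had a dimmer probe set that passed with a rise, at 0.43 to 0.73. In all, 11 genes that were not called on their brightest probe set had another that was called higher. Conversely, of the 17 genes that were called higher and had another tested probe set, 6 had one that was not called higher: Ndufb2, Ndufb11, Ndufc2, Ndufs4, Sdhd and Uqcr10. Of the 144 member probe sets tested each on its own, 58 were called higher and 3 lower, against 13.5% and 12.9% of all 14266 probe sets.

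**Figure D5:**
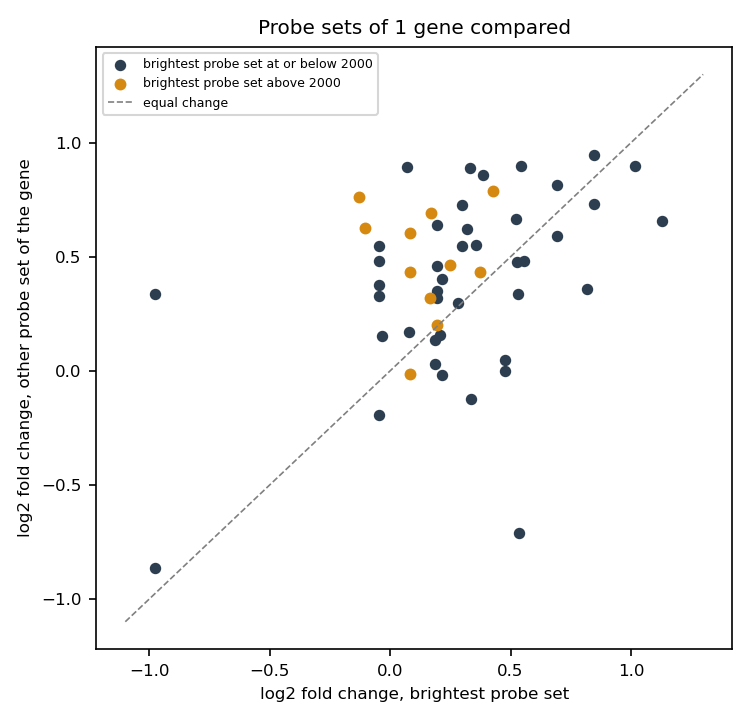
Log2 fold change of the brightest probe set of a member gene, by mean log2 level (horizontal) against that of another probe set of the same gene (vertical) for the 53 pairs whose other probe set averaged above 73.4, with a dashed line at equal change and orange points where the brightest averaged above 2000. Of the 53 points 35 lie above the line, and of the 11 orange points 10 do.

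Further lists covered genes that serve the respiratory chain, and their counts stand beside the 14.7% of all genes called higher. These lists were chosen with earlier results of these data known, so their shares are descriptions only. Of 32 tested assembly factors of complexes I to V outside the rule, 13 (40.6%) were higher and none lower, with a median log2 fold change of 0.48. Fmc1, which helps to assemble ATP synthase, read 303.6 and 339.3 in Sftpc-Nmyc lungs, against 124.3 and 145.8 in wild-type lungs, and rose by 1.22 ± 0.16. Pet100 and Coa3, which serve complex IV, rose by 0.95 ± 0.19 and 0.60 ± 0.12. The call of Pet100 was lost without wild-type replicate 2 (limma adjusted p = 0.073) and that of Coa3 without either wild-type array. Of 11 genes for cytochrome c, cytochrome c1 and coenzyme Q, 6 (54.5%) were higher and none lower (median 0.63). Cyc1, cytochrome c1 itself, rose by 0.63 ± 0.12, and Coq7, Coq3 and Coq5, enzymes of coenzyme Q synthesis, by 0.96 to 1.11. Both wild-type values of Coq5, 50.2 and 60.2, lie under the background guide of 73.4, so the size of its rise is not well defined.

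In the citric acid cycle and pyruvate dehydrogenase 10 of 17 genes (58.8%) were higher and none lower, with a median of 0.50. Fumarase, Fh1, which follows complex II in the cycle, read 574.8 and 667.6 in Sftpc-Nmyc lungs, against 301.7 and 281 in wild-type lungs, and rose by 1.06 ± 0.15. Suclg2, a subunit of the enzyme that makes succinate, rose by 0.99 ± 0.15, and Idh3a, a subunit of isocitrate dehydrogenase, by 0.94 ± 0.14. Of 12 genes for upkeep and transcription of mitochondrial DNA, 7 (58.3%) were higher and none lower (median 0.65). Tfb1m, among those called higher, read 32.2 and 35.6 in wild-type lungs, under the filter floor of 37.2. It passed the filter through its Sftpc-Nmyc level and could only come out higher. Tfb2m and Tfam, which start transcription of mitochondrial DNA, rose by 1.29 ± 0.25 and 0.85 ± 0.17. Wild-type replicate 2 of Tfb2m read 60.1, under the background guide of 73.4, so the size of its rise is not well defined. The Tfam call ended without replicate 2 of either group (limma adjusted p = 0.058 and 0.064).

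Of 11 tested regulators of respiratory genes, 0 were called by limma, with 2 at an unadjusted p under 0.05 and a median of 0.23. Pprc1, a coactivator of the PGC-1 family, stood at 0.79 ± 0.27 and Hcfc1 at 0.52 ± 0.17. With a filter at the 50th percentile both passed (limma adjusted p = 0.048 and 0.047), as did Pprc1 without Sftpc-Nmyc replicate 2 (0.012) and Hcfc1 without wild-type replicate 1 (0.046). Nfe2l2, which stood at -0.42 ± 0.20, passed as lower without Sftpc-Nmyc replicate 1 (-0.73, limma adjusted p = 0.018). Of 10 inner membrane carriers and porins 2 (20%) were higher and none lower, a share near that of all genes (median 0.08): the aspartate-glutamate carrier Slc25a13 rose by 2.16 ± 0.31 with wild-type signals under the background guide, 50.7 and 22.6, and the phosphate carrier Slc25a3, which feeds ATP synthase, by 0.44 ± 0.12, a call that ended without replicate 2 of either group. Among 15 genes of electron entry and fatty acid oxidation 5 (33.3%) were higher and 1 lower (median 0.24). Dhodh, among those called higher, read 33 and 30.2 in wild-type lungs, under the filter floor of 37.2. It passed the filter through its Sftpc-Nmyc level and could only come out higher. Etfa, of the flavoprotein that feeds electrons from fatty acid oxidation to coenzyme Q, rose by 0.80 ± 0.17, and Cpt1a, which admits fatty acids to mitochondria, fell by 0.81 ± 0.17, and both calls ended without wild-type replicate 2. Of 4 genes of uncoupling and ATP synthase inhibition, Atpif1, the inhibitor of ATP synthase, rose by 0.59 ± 0.16, a call that ended without Sftpc-Nmyc replicate 2 and without either wild-type array.

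Markers of the cell types of the lung differed between the groups beside these genes. Over all genes tested, 14.7% were called higher and 15.7% lower. Markers under the filter floor in both Sftpc-Nmyc lungs, such as Aqp5 and Rtkn2 of type I cells, passed through their wild-type level and could only come out lower. All 9 tested markers of alveolar type II cells and all 5 of alveolar type I cells were lower, and the summed type II signal was 9290.6 and 6858.5 in Sftpc-Nmyc lungs, against 32880.1 and 38771.7 in wild-type lungs. Of 8 general epithelial markers 5 were higher and none lower, with summed signals of 6426.8 and 6499.6 in Sftpc-Nmyc lungs and 3500.2 and 3959.9 in wild-type lungs. All 8 endothelial markers were lower, with summed signals of 2442.7 and 2310.9 in Sftpc-Nmyc lungs and 6297.2 and 7189.4 in wild-type lungs. Of 6 macrophage markers 2 were lower, as were both tested erythroid markers. The part of these shifts in the changes of oxidative phosphorylation genes was not tested.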

How the data were processed

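Biotin-labelled total RNA of whole lung was measured on 4 Affymetrix arrays, per the labels. The deposited values are linear intensities, 1 per probe set, for 22690 probe sets, and the software behind them is not given in the sources used here. Each array has a mean of 150.05 with the highest and lowest 2% left out, as scaling to a common level gives. Medians per array lay between 65.45 and 70.8. Detection calls were not used, and the highest of 27 Bacillus control probe sets, 73.4, served as a guide to background.

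After a floor of 1 and an offset of 5, intensities were put on the log2 scale and quantile normalized across arrays, control probe sets left out. The offset makes fold changes of dim genes too small. Symbols came from the platform annotation, and all 84 members matched RefSeq names of GRCm38.p6. For each gene the single-symbol probe set with the highest mean stood for it, and genes below the 30th percentile of mean level were left out. Group was the only term in limma 3.58.1 (R 4.3.3), with a variance trend and Benjamini-Hochberg adjustment over 8675 genes. Errors after ± are limma standard errors. The code was tested on simulated data. Deviations of same-numbered arrays from their group means correlated at r = -0.025, so replicate numbers were not taken as pairs. All members may be named, as may up to 4 genes of each other list with the largest moderated statistic. Members and lists were chosen with earlier results of these data known. Alternatives were other offsets, filters, probe set rules and variance models, no quantile normalization, a replicate block and leaving out each array.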

Additional observations from a re-analysis of the deposited data

How the results depend on the processing

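All values here are log2 fold changes or counts of called genes. The count over all genes, 2636, was 1421 to 1907 with 1 array left out, members called higher, 33, were 11 to 22, and members called lower, 2, were 0 to 2. Members called higher were 16 with no variance trend. With no filter on dim genes 24 of the 33 were still called higher, and no other member became called. With the mean of probe sets 27 of the 33 were still called higher, and 7 other members became called. With the replicate number as a block, 25 members were called higher and 2 lower, although the data do not show that the numbers pair the arrays (r = -0.025). Members called lower were 1 with the 50th percentile filter and 1 with the dimmest probe set above the filter, an alternative chosen after seeing the data. With 1 array left out, the medians ran from 0.34 to 0.37 over all members, from 0.32 to 0.49 in complex I, from 0.28 to 0.50 in its assembly factors, from 0.18 to 0.37 in complex II, from 0.42 to 0.52 in complex III, from 0.13 to 0.24 in complex IV and from 0.34 to 0.37 in complex V. With the mean of probe sets, the medians were 0.39 in complex I and 0.43 in complex V. With the dimmest probe set they were 0.43 over all members, 0.40 in complex I, 0.61 in its assembly factors, 0.36 in complex II and 0.48 in complex V. The assembly factor median was 0.40 with the 50th percentile filter.

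Without quantile normalization 5 further members were called higher: Atp5g3, Atp5h, Cox7a2, Ndufa6 and Ndufb9. In the same setting 2 members lost their call, Ndufaf1 (limma adjusted p = 0.055) and Ndufb1 (0.053). Signs turned for Ndufs8 (0.012) and Uqcrb (0.13) without quantile normalization. With the mean of probe sets they turned for Ndufa3 (0.059), Ndufs8 (0.25), Uqcrb (0.26), Cox6c (0.32), Uqcr10 (-0.72) and Atpif1 (-0.24). With the dimmest probe set they turned for Ndufa3 (0.15), Uqcrb (0.63), Cox6c (0.76), Atp5k (0.34), Uqcr10 (-0.71), Uqcrq (-0.036), Atp5h (-0.12) and Uqcc2 (-0.34). With 1 array left out, values crossed 0 for 9 genes that were not called: Ndufv3 (-0.33 to 0.40), Ndufb6 (-0.0095 to 0.15), Ndufa3 (-0.19 to 0.12), Ndufa1 (-0.22 to 0.021), Ndufs8 (-0.12 to 0.033), Uqcrb (-0.30 to 0.081), Cox5b (-0.047 to 0.21), Atp5g3 (-0.087 to 0.25) and Atp5l (-0.041 to 0.32). The causes were not tested. With 2 arrays per group the median standard error was 0.19, and differences of that size could not be resolved.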

Other observations

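Some probe sets for genes of oxidative phosphorylation carry several symbols and entered no test. The 2 probe sets shared by Ndufb4 and its copies Ndufb4b and Ndufb4c, for a subunit of the membrane arm of complex I, had deposited signals of 756.2 and 773.7 in Sftpc-Nmyc lungs, against 511.8 and 547.8 in wild-type lungs, on the first. On the second they had 464.2 and 425.1 in Sftpc-Nmyc lungs, against 312 and 313.5 in wild-type lungs. A probe set shared by Ndufab1 and its pseudogene read 431.9 and 402.3 in Sftpc-Nmyc lungs and 178.8 and 196.2 in wild-type lungs. In each of these the groups did not overlap. The probe sets shared by Ndufa11 and Ndufa11b and by Ndufs6 and Ndufs6b had groups that overlapped, at 573.9 and 829.2 in Sftpc-Nmyc lungs and 820.3 and 635.4 in wild-type lungs for the first, and at 846.2 and 632.6 in Sftpc-Nmyc lungs and 794.9 and 809.7 in wild-type lungs for the second.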
